A study of Mus musculus with 30 samples.

Results

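The comparison described here is that of SBMA with control mice in the extrasynaptic diaphragm at 15 weeks of age. It takes 7 of the 30 RNA-seq libraries of the study, 4 from SBMA animals and 3 from controls, chosen by region, age and genotype as the labels give them. Spinal and bulbar muscular atrophy (SBMA) is an X-linked neuromuscular disease of men caused by an expanded polyglutamine tract. The SBMA mice carry BACfxAR121, a bacterial artificial chromosome with a human gene that holds the expanded tract and is flanked by loxP sites. The genotype label of the SBMA samples is spelled BACfxR121. The controls are HSA-Cre;BACfxAR121 littermates, in which Cre recombinase driven by the human skeletal actin promoter removes the transgene from skeletal muscle fibres. Both groups therefore carry the transgene, and outside muscle, motor neurons included, the controls keep it. The groups differ in the transgene in muscle and in the presence of Cre, which cannot be told apart. All animals were male, and no strain is stated. The other libraries come from perisynaptic diaphragm, with neuromuscular junctions, of the same 15-week animals, and from both regions of separate animals at 26 weeks.

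In innervated muscle the acetylcholine receptor, its clustering kinase and the anchored acetylcholinesterase are made mainly by the nuclei beneath the synapse, and electrical activity keeps their genes low elsewhere along the fibre. Extrasynaptic muscle is therefore where a rise of such genes is easiest to see. Most of the RNA of this tissue encodes the contractile filaments, the calcium store that triggers them and the enzymes that supply ATP, each with isoforms for fast and slow fibres.

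Total counts were 24631445 to 28464814 in the 7 libraries. Skeletal muscle markers such as Acta1, Ckm and Mb were high in each of them. Of the neuronal markers, Snap25, Syt1, Nefh and Slc5a7 were at 0 in 5 or 6 of the 7, and Nefl in 3. Tubb3, Nefm and Prph were detected in all 7, at 0.320 to 0.641, 0.0758 to 1.01 and 0.135 to 0.362 CPM. The human transgene is not a feature of the mouse count table, so the genotype labels could not be checked by it. The highest 10 genes held 20.3 to 23.6% of counts in controls and 17.2 to 19.4% in SBMA libraries. The normalization factors followed, 0.887 to 0.932 against 1.01 to 1.05, so a change in CPM (counts scaled to the normalized library size) is relative to the bulk of the other genes in the library. The feature Gm42418, which overlaps an annotated ribosomal RNA on the other strand, held 3.36 to 6.20% of counts in controls and 0.824 to 3.27% in SBMA libraries. The library names fall into 2 runs of consecutive animal numbers. The first has 1 control and 3 SBMA mice, and the second has 2 controls and 1 SBMA mouse. No label says that these are batches. All 190 genes called below had the same sign within each run. In 189 of them the groups did not overlap, which fixes that sign in advance. With a block for the runs 144 genes were called, 114 of them among the 190.

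At 15 weeks 190 of 15526 genes tested differed between SBMA and control extrasynaptic muscle (edgeR quasi-likelihood test, adjusted p under 0.05), which is 1.22% of them. Of these, 86 were higher in SBMA mice (0.554%) and 104 lower (0.67%), while 2237 genes had an unadjusted p under 0.05. Rises ran from 0.26 to 4.17 on the log2 scale with a median of 0.70, and 27 exceeded 2-fold. Falls ran from -0.24 to -2.85 with a median of -0.71, and 18 exceeded 2-fold. The count rests on the animals: it was 81 without control replicate 3 and 121, 110, 100 and 124 without SBMA replicates 1, 2, 3 and 4. With libraries scaled by total counts alone 2356 genes were called, 95.4% of them higher against 45.3% in the main test, and the median of all genes moved from -0.01 to 0.19. In bulk tissue, fewer cells of a type and less RNA per cell cannot be told apart.

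**Figure D1:**
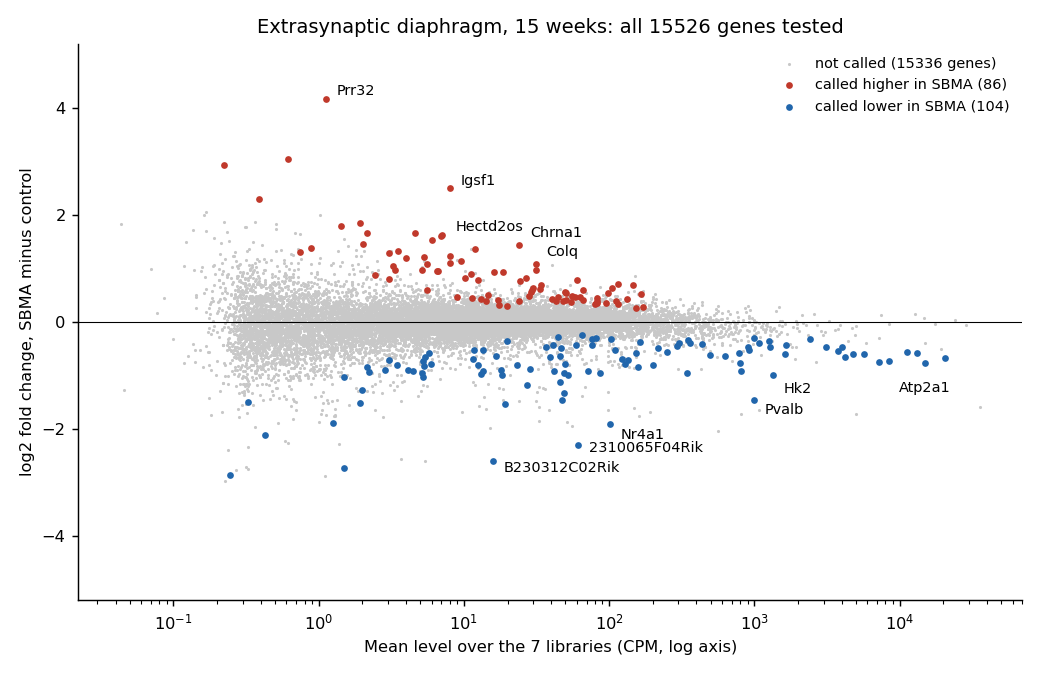
Log2 fold change of SBMA over control (vertical axis) against the mean level over the 7 libraries in CPM (horizontal log axis) for the 15526 genes tested, one point per gene. Genes called higher (86, red) lie mostly at low and middle levels, and genes called lower (104, blue) reach to the right edge, where Atp2a1 and other muscle genes lie.

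Among the synaptic genes, 2 of the 26 tested members rose, Chrna1 and Colq, and none fell. Over all genes tested 0.554% rose. The median log2 fold change of the 26 was 0.22, against -0.01 over all genes. Chrna1 encodes the alpha subunit of the muscle acetylcholine receptor and lies on chromosome 2 (GRCm38, 73563215 to 73580338, minus strand). Its level was 10.2, 11.8 and 14.2 CPM in the 3 controls and 36.1, 27.9, 41.9 and 25.8 CPM in the 4 SBMA mice. Every SBMA library exceeded every control. The log2 fold change was 1.45 ± 0.19 (SE, adjusted p = 0.0011), and the call held in all 15 alternative fits, those without 1 animal included. The 250 bases before the start of Chrna1 are shown because the gene is the synaptic member with the largest called rise; the region is chr2:73580339-73580588 of GRCm38.p6 (RefSeq), read 5′ to 3′ on the minus strand, with matches to the E-box CANNTG, bound by myogenic regulators, in capitals.
Chrna1: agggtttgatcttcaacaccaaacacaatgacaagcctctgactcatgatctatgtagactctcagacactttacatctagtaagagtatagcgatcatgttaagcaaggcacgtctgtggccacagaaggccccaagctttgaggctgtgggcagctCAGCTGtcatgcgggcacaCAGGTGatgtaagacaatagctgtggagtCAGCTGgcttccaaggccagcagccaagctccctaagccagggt
The 3 matches begin 92, 73 and 44 bases before the start. Such a match on either strand occurs in 66.2% of all 32817 RefSeq promoter windows of the same length, and the form CAGCTG, present at 2 of the 3 places, in 13.0%. A match describes letters and not a bound site.

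Colq, the collagen-like subunit that holds acetylcholinesterase in the synaptic basal lamina, stood at 11.0, 21.2 and 24.7 CPM in controls and at 37.5, 38.0, 45.3 and 40.6 CPM in SBMA mice. The groups did not overlap, although control replicate 1 lay well below the other controls. The log2 fold change was 1.09 ± 0.21 (adjusted p = 0.019), and the call was lost without SBMA replicate 3 and in a fit of the 7 libraries alone (adjusted p = 0.058 and 0.056). Chrna4, an acetylcholine receptor subunit of neurons that is in no list and was chosen after its values were seen, rose from 3.41 ± 0.605 CPM (mean ± SD, n = 3) to 7.27 ± 0.912 CPM (n = 4), a log2 fold change of 1.09 ± 0.20 (edgeR, adjusted p = 0.013), a call lost without control replicate 1 or 2.

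The other receptor subunits did not pass the test. Chrnb1, the beta subunit, was at 28.6 ± 3.11 CPM in controls and 39.9 ± 3.78 CPM in SBMA mice (log2 0.48 ± 0.14, adjusted p = 0.13), and its groups did not overlap. Chrnd and Chrne, the delta and adult epsilon subunits, overlapped between groups (log2 0.72 ± 0.50 and 2.01 ± 1.03, adjusted p = 0.54 and 0.39; 0.09 and 0.66 without SBMA replicate 1), and the fetal gamma subunit Chrng was too low to be tested. Musk, the receptor kinase that clusters the acetylcholine receptor, had 26.0, 22.3 and 26.8 CPM in controls and 56.2, 48.4, 45.6 and 58.7 CPM in SBMA mice. Its groups lay far apart, yet its log2 fold change of 1.06 ± 0.31 had an adjusted p of 0.13 (0.0076 in a fit of the 7 libraries alone). Lrp4, the agrin receptor that binds Musk, differed by log2 0.41 ± 0.14 (adjusted p = 0.17), and Ache, acetylcholinesterase itself, by 0.58 ± 0.27 (adjusted p = 0.34).

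**Figure D2:**
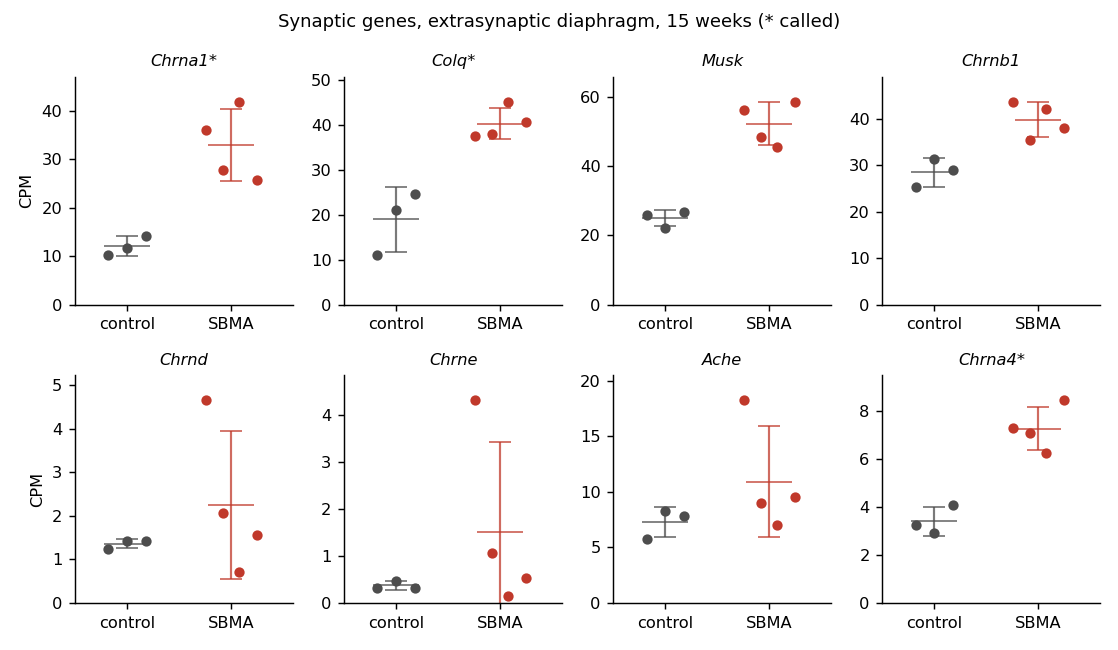
Level in CPM of 8 acetylcholine receptor and synaptic genes in each of the 3 control and 4 SBMA libraries (points), with group mean and SD (bars); an asterisk marks a called gene. Chrna1 and Colq rose with no overlap, whereas Chrnd, Chrne and Ache are each highest in the same single library, SBMA replicate 1.

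As a rough guide to the amount of junction in the pieces, 10 transcripts made by synaptic nuclei were examined. Chrne was at 0.321 to 0.476 CPM in controls and 0.152 to 4.32 CPM in SBMA libraries, against 17.3 to 29.3 CPM in the perisynaptic pieces. SBMA replicate 1 was highest for Chrne (4.32 CPM), Chrnd (4.66 CPM) and Ache (18.3 CPM). SBMA replicate 3 had the lowest Chrne of the 7 libraries (0.152 CPM) and the highest Chrna1 (41.9 CPM). The summed level of the 10 transcripts, Musk and Lrp4 among them, was 239.5 to 247.7 CPM in controls and 284.9 to 365.7 CPM in SBMA mice. Most of this sum was Prkar1a, at 153.5 to 159.2 CPM in controls and 168.9 to 208.0 CPM in SBMA mice. The sum is therefore a weak measure of junction. Of the 10 transcripts 9 lay above 0, with a median of 0.53, and none was called. Without SBMA replicate 1 the rise of Chrna1 remained called, the median of the 10 transcripts was 0.29, and the log2 fold change was 0.66 for Chrne, 0.09 for Chrnd and 0.22 for Ache. The part of junction in the pieces in the rise of Chrna1 was not tested.

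In perisynaptic pieces of the same animals 33 of 15735 genes were called (0.21%), 20 higher (0.127%) and 13 lower (0.0826%). Of these 33, 26 were also called in the extrasynaptic pieces in the same direction. All 189 extrasynaptic calls that were tested in perisynaptic pieces had the same sign there. There the log2 fold change was 0.44 for Chrna1 (adjusted p = 0.53), 0.41 for Colq (adjusted p = 0.42) and 0.60 for Musk (adjusted p = 0.80). The difference between regions, tested within animals, was 1.02 ± 0.16 for Chrna1 (adjusted p = 0.12) and 0.74 ± 0.19 for Colq (adjusted p = 0.78). Over all 16138 genes edgeR called no difference of the genotype effect between regions (0%), with 421 at an unadjusted p under 0.05. DESeq2 called 5 genes: Chrna1 (1.02), Prkar1a (0.52), Gm37194 (-2.84), mt-Tq (-4.81) and mt-Nd6 (-1.10). Without SBMA replicate 2 edgeR called 6.

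The gene with the largest rise among those above 2 CPM was Igsf1, an immunoglobulin superfamily membrane protein encoded on chromosome X (49782536 to 49797749). It stood at 1.93, 2.08 and 2.57 CPM in controls and at 11.2, 14.4, 13.8 and 10.2 CPM in SBMA mice. The groups lay far apart and the log2 fold change was 2.50 ± 0.19 (adjusted p = 1.6e-05). In perisynaptic pieces it was 2.21 (adjusted p = 0.00021). Prr32, a gene of unknown function also on chromosome X, was close to absent in controls, at 0.0804, 0.0865 and 0.137 CPM. It reached 2.31, 2.56, 1.29 and 1.42 CPM in SBMA mice (log2 4.17 ± 0.57, adjusted p = 0.0015). Of the 86 rises 8 lay on chromosome X (9.30%), as did 1 of the 104 falls and 3.14% of all genes tested.

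Other large rises were in the following genes. Kcnj3, a subunit of the G protein-gated inward rectifier potassium channel, rose from 2.07 ± 0.307 to 6.58 ± 1.07 CPM (log2 1.67 ± 0.24, adjusted p = 0.0021). Erc2, a scaffold of the presynaptic active zone, rose from 0.975 ± 0.37 to 3.07 ± 0.343 CPM (log2 1.66 ± 0.22, adjusted p = 0.0011). Sctr, the secretin receptor, had 2.45, 3.98 and 2.29 CPM in controls and 7.32, 7.07, 9.93 and 9.27 CPM in SBMA mice, with no overlap (log2 1.53 ± 0.22, adjusted p = 0.0021). Tecrl, an enoyl-CoA reductase-like protein of the sarcoplasmic reticulum linked to inherited arrhythmia, rose from 6.23 ± 1.70 to 16.1 ± 2.24 CPM (log2 1.37 ± 0.17, adjusted p = 0.0011). Rtkn2 (1.85), the receptor kinase Ros1 (1.46), Stum (1.32) and the peptide transporter family gene Slc15a5 (1.22) also rose. The noncoding or unnamed genes were Gm48606 (1.80), Hectd2os (1.63), F830016B08Rik (1.61) and 1700108F19Rik (1.30). Hectd2os runs antisense to Hectd2 and rose from 3.21 ± 0.486 to 9.90 ± 1.58 CPM (adjusted p = 0.00035). The strand setting of the counting is not given, and reads of such a pair cannot be told apart if the counting ignored strand. Hectd2 itself had a log2 fold change of 0.13 (adjusted p = 0.91).

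Igsf1, Prr32, Erc2, Sctr, Tecrl, Hectd2os and Gm48606 were called in all 15 alternative fits. The calls of Stum and Ros1 were the least steady of these rises, since Stum lost its call without control 2 or 3 or any 1 of the SBMA mice, and Ros1 without any 1 control or without SBMA replicate 3 or 4. F830016B08Rik lost its call without control 1 or 3, and Slc15a5 without control 1 or 3 or SBMA replicate 3.

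The Tceal and Bex genes, a cluster of small proteins on chromosome X, had 2 of 8 tested members called, both higher. Over all genes tested 0.554% were called higher. The median log2 fold change of the 8 was 0.36. Tceal5 rose from 4.54, 5.45 and 3.57 CPM in controls to 9.21, 8.63, 13.7 and 11.3 CPM in SBMA mice (log2 1.24 ± 0.20, adjusted p = 0.0050), with no overlap. Tceal7 had 4.80 ± 2.02 CPM in controls and 10.4 ± 2.31 CPM in SBMA mice (log2 1.11 ± 0.25, adjusted p = 0.039). The call of Tceal7 was lost without control 1 or 3 and without SBMA replicate 2, 3 or 4, and its span overlaps Bex1 on the other strand (log2 0.59, adjusted p = 0.26). Tceal9 narrowly missed the threshold (log2 0.40 ± 0.09, adjusted p = 0.054).

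Fast-fibre genes were lower in SBMA muscle: 9 of 14 fell, against 0.67% of all genes tested, and none rose. The median log2 fold change was -0.54 (-0.35 under scaling by total counts). In 13 of the 14 every SBMA library lay below every control, a pattern shown by 7.77% of all genes tested. Pvalb, the cytosolic calcium buffer of fast fibres, had 1741, 1533 and 1436 CPM in controls and 634, 653, 513 and 486 CPM in SBMA mice. The highest SBMA library held less than the lowest control, and the log2 fold change was -1.46 ± 0.20 (adjusted p = 0.0014). Atp2a1, the fast calcium pump SERCA1, fell from 19528 ± 1083 to 11426 ± 749 CPM (log2 -0.77 ± 0.08, adjusted p = 0.00035). Actn3 (-0.91), Myoz1 (-0.64) and the troponins Tnni2 (-0.60) and Tnnt3 (-0.57) of the Z disc and thin filament also fell, as did Casq1 (-0.46) and the light chains Mylpf (-0.46) and Myl1 (-0.42). Atp2a1, Pvalb, Casq1, Tnnt3 and Myoz1 kept the call without each animal in turn. The other 4 lost it at least without control replicate 3 and without SBMA replicate 3, which left 5 of the 14 called.

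The fast and developmental myosin heavy chains lie in one cluster on chromosome 11, in the order Myh3, Myh2, Myh1, Myh4, Myh8 and Myh13, and Myh8 was the member that passed the test. Myh4, the myosin of the fastest fibres (IIb), had 11436, 6617 and 7080 CPM in controls and 2729, 3193, 3367 and 857 CPM in SBMA mice. Its groups did not overlap, but the spread within each was wide, and the log2 fold change of -1.72 ± 0.51 did not pass the test (adjusted p = 0.12). Neither Myh1 (IIx, log2 -0.51 ± 0.14, adjusted p = 0.086) nor Myh2 (IIa, log2 -0.31 ± 0.14, adjusted p = 0.32) passed. Myh8, the perinatal myosin, rose from 4.30, 4.89 and 3.48 CPM to 10.1, 7.21, 7.73 and 7.65 CPM (log2 0.95 ± 0.19, adjusted p = 0.022), a call lost without control 1 or 3 or SBMA replicate 1. Embryonic Myh3 (log2 -0.62, adjusted p = 0.27) and Myh13 (log2 -0.59, adjusted p = 0.36) did not pass.

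Of 3 noncoding genes described in this cluster 2 fell. The long intergenic RNA 2310065F04Rik (67112461 to 67120080, minus strand) lies between Myh3 and Myh2. It had 82.9, 125 and 129 CPM in controls and 23.8, 35.9, 9.28 and 22.5 CPM in SBMA mice. No SBMA library came near the controls, and the log2 fold change was -2.29 ± 0.30 (adjusted p = 0.0011), called in all 15 alternative fits. Myhas (67211256 to 67237573, minus strand) starts just before Myh4 and runs antisense into Myh1; it fell from 34.6, 36.8 and 47.5 CPM to 18.6, 20.1, 14.7 and 16.9 CPM (log2 -1.17 ± 0.15, adjusted p = 0.0011). Reads of Myhas and Myh1 cannot be told apart if the counting ignored strand. The antisense gene 9430073C21Rik at the end of Myh2 had a log2 fold change of -0.45 (adjusted p = 0.17).

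**Figure D3:**
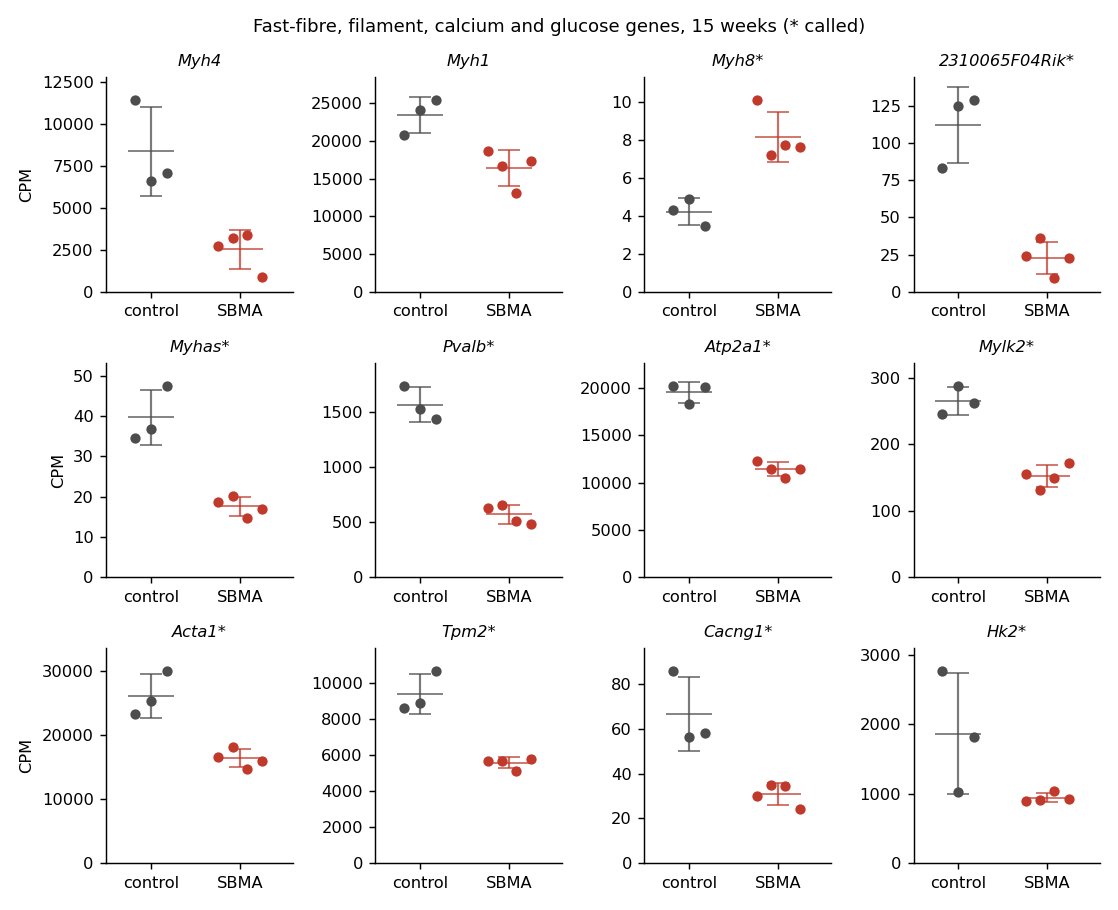
Level in CPM of 12 muscle genes in each of the 3 control and 4 SBMA libraries (points), with group mean and SD (bars); an asterisk marks a called gene. Myh8 is higher in SBMA mice and the others are lower; Hk2 is the one gene in which a control library (1024 CPM) lies within the SBMA range.

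None of the 11 slow-fibre genes was called, although their median was -0.39 (-0.22 without control replicate 3). In 4 of them every SBMA library lay below every control, a pattern shown by 7.77% of all genes tested. Myh7, the slow myosin, had 2154 ± 212 CPM in controls and 1549 ± 351 CPM in SBMA mice (log2 -0.48 ± 0.24, adjusted p = 0.38). Atp2a2, the slow calcium pump, differed by log2 -0.43 ± 0.14 (adjusted p = 0.17) and Casq2, slow calsequestrin, by 0.35 ± 0.11 (adjusted p = 0.14).

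Among 47 genes of sarcomere structure 7 fell, against 0.67% of all genes tested, and none rose. Their median log2 fold change was -0.20. Acta1, skeletal actin, had 23248, 25307 and 29968 CPM in controls and 16616, 18057, 14696 and 16008 CPM in SBMA mice, so that the groups were apart (log2 -0.68 ± 0.10, adjusted p = 0.0039). The tropomyosins Tpm2 (-0.75) and Tpm1 (-0.59), the light chain kinase Mylk2 (-0.80), Ckm (-0.55), Tmod4 (-0.45) and Myot (-0.40) were the other falls. Mylk2, the kinase of skeletal muscle, fell from 265 ± 21.2 to 152 ± 16.8 CPM (adjusted p = 0.0035), whereas its cardiac relative Mylk3, named after its values were seen, rose from 12.2 ± 2.60 to 23.4 ± 1.66 CPM (log2 0.93 ± 0.15, adjusted p = 0.0054). Of the giant proteins neither Neb, nebulin (log2 0.13, adjusted p = 0.87), nor Ttn, titin (log2 -0.40, adjusted p = 0.38), was called. Mylk2, Tpm2, Acta1 and Tpm1 kept the call without each animal, and Ckm, Tmod4 and Myot lost it at least without control replicate 3 and without SBMA replicate 3, which left 4 of the 47 called. Under scaling by total counts the median of this list was close to 0 and 6 members were called lower and 3 higher.

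Genes of calcium release and uptake fell in part: 8 of 41 were lower, against 0.67% of all genes tested, and none was higher. Their median was -0.09 (-0.04 without control replicate 3, -0.15 without control replicate 1). Besides Pvalb, Atp2a1 and Casq1 they were Cacng1 and Cacna1s, subunits of the skeletal muscle voltage sensor, and the triad proteins Jph2 (-0.41), Hrc (-0.36) and Tmem38a (-0.31). Cacng1 had 85.7, 56.2 and 58.1 CPM in controls and 29.7, 34.7, 34.4 and 24.0 CPM in SBMA mice, without overlap (log2 -1.12 ± 0.20, adjusted p = 0.012; lost without control replicate 1). Cacna1s, the pore of the voltage sensor, fell from 1517 ± 76.2 to 1099 ± 52.9 CPM (log2 -0.47 ± 0.10, adjusted p = 0.025). Ryr1, the release channel, had a log2 fold change of -0.45 ± 0.16 (adjusted p = 0.19). Micu2, a gatekeeper of the mitochondrial calcium uniporter outside the naming rule, rose by 0.34 ± 0.07 (adjusted p = 0.020; lost without control 1 or 3 or SBMA replicate 2, 3 or 4). The count of 8 fell to 4 without control replicate 3, which ended the calls of Cacna1s, Jph2, Hrc and Tmem38a, and under scaling by total counts it was 5, with 4 higher and a list median of 0.11.

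Of 25 genes of membrane excitability 1 was called higher (0.554% of all genes tested) and 2 lower (0.67%). The list had 18 members below 0 and a median of -0.14, which became 0.05 under scaling by total counts. The potassium channel gene Kcnj3 rose, as given above. Of the 2 falls, 1 was in an ion pump gene not reported here. Kcnj11, the pore of the ATP-sensitive potassium channel, fell from 88.7 ± 2.58 to 66.0 ± 2.92 CPM (log2 -0.43 ± 0.08, adjusted p = 0.015; lost without control 3 or SBMA replicate 3).

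Glycolysis and glycogen genes had 4 of 31 members lower, against 0.67% of all genes tested, and none higher. Their median of -0.21 came to -0.02 under scaling by total counts. All 18 glycolytic members lay below 0. Aldoa fell from 5308 ± 218 to 3384 ± 170 CPM (log2 -0.65 ± 0.10, adjusted p = 0.0043) and was the member called without each animal. Hk2, the hexokinase of insulin-responsive muscle, had 2767, 1024 and 1814 CPM in controls and 891, 912, 1035 and 920 CPM in SBMA mice. Control replicate 2 lay within the SBMA range, and Hk2 was the single called gene of the 190 whose groups overlapped (log2 -0.99 ± 0.23, adjusted p = 0.046; -0.59 without control replicate 1). Groups without overlap were found in 15.7% of all genes tested. Ppp1r3c, which directs protein phosphatase 1 to glycogen, fell by 0.96 (adjusted p = 0.037) and Pfkm, phosphofructokinase, by 0.32 (adjusted p = 0.037). Hk2, Ppp1r3c and Pfkm each lost the call without control replicate 1 or 3 or any 1 SBMA mouse, and Pfkm also without control 2. Stbd1, a glycogen-binding protein named after its values were seen, rose from 20.2 ± 3.97 to 39.6 ± 4.29 CPM (log2 0.97 ± 0.13, adjusted p = 0.0011).

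No respiratory chain gene was called, where 1.22% of all genes tested were. Of the nuclear genes of complex I 36 of 37 lay below 0, with a median of -0.15, and of complexes II to V 40 of 42, with a median of -0.16; both medians became 0.04 under scaling by total counts, and -0.07 and -0.05 without control replicate 3. The cytosolic ribosome showed the same small shift, with 66 of 71 below 0 and a median of -0.16 (0.03 under total counts, -0.10 without control replicate 3), and no call. Mb, myoglobin, fell from 10905 ± 721 to 6624 ± 918 CPM (log2 -0.72 ± 0.10, adjusted p = 0.0025). Coq8a, which acts in coenzyme Q synthesis and was named after its values were seen, fell from 2024 ± 187 to 1343 ± 77.9 CPM (log2 -0.59 ± 0.07, adjusted p = 0.00089). Lpl, lipoprotein lipase, was the single called member of 27 fatty acid genes (log2 -0.55 ± 0.10, adjusted p = 0.0099; lost without control replicate 3). Ppargc1a, a regulator of oxidative genes, had 362 ± 284 CPM in controls and 279 ± 52.5 CPM in SBMA mice and was not called (adjusted p = 0.79).

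**Figure D4:**
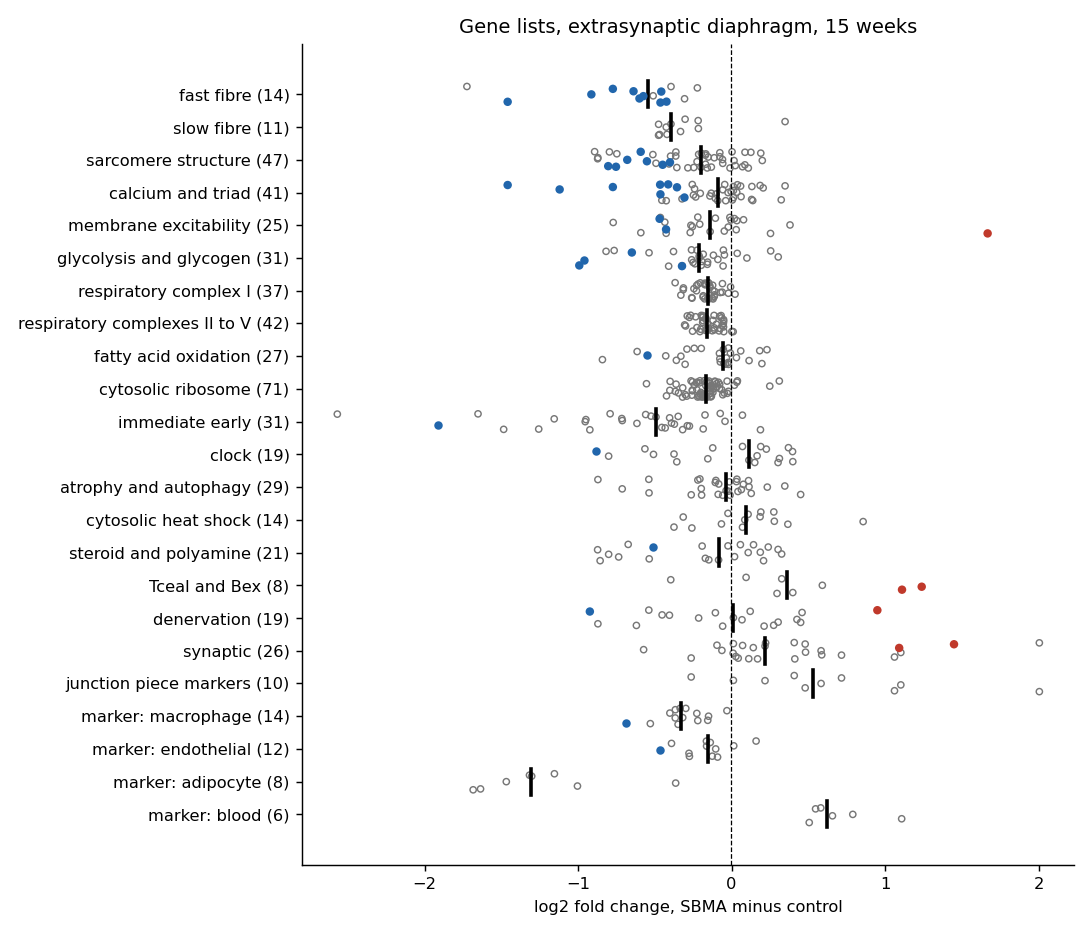
Log2 fold change of SBMA over control (horizontal axis) for the tested members of 23 gene lists, with the number tested in brackets. Filled points are called genes (red higher, blue lower), open points are not called, thick bars are list medians, and the dashed line is the median of all genes. Called falls gather in the fast-fibre, sarcomere and calcium rows, and the called rises lie in the synaptic, Tceal and Bex, denervation and membrane excitability rows.

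Immediate early genes, whose transcripts follow recent activity or stress of the cell, were mostly lower, with 29 of 31 below 0 and a median of -0.49 (-0.30 under total counts), but Nr4a1 alone was called. Over all 15526 genes tested 7940 lay below 0 and 1.22% were called. Nr4a1, an orphan nuclear receptor induced by contraction, had 123, 299 and 103 CPM in controls and 57.5, 38.7, 30.5 and 58.8 CPM in SBMA mice. Control replicate 2 stood well above the other controls, and no SBMA library reached the lowest of them. The log2 fold change was -1.91 ± 0.38 (adjusted p = 0.019), lost without control replicate 2 or SBMA replicate 2 or 3. Among the uncalled members, Nr4a2 had a log2 fold change of -2.57 ± 0.74, Btg2 of -0.92 ± 0.26 and Klf2 of -0.71 ± 0.20 (adjusted p = 0.12, 0.11 and 0.11); Nr4a2 stood at -0.76 without control replicate 2. Slc25a25, a calcium-regulated mitochondrial ATP carrier, fell from 74.3 ± 21.3 to 27.0 ± 11.7 CPM (log2 -1.46 ± 0.32, adjusted p = 0.037), and Gadd45g, a stress-induced gene, from 74.3 ± 21.6 to 29.6 ± 8.46 CPM (log2 -1.33 ± 0.30, adjusted p = 0.039). Both lost the call without control 3 or SBMA replicate 1, 2 or 3, as did Slc25a25 without control 2 and Gadd45g without control 1 or SBMA replicate 4.

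The 250 bases before the RefSeq start of Nr4a1 are shown beside this fall, since activity-driven induction of the gene is known to pass through cyclic AMP response elements. The region is chr15:101266596-101266845 (plus strand, GRCm38.p6), inside the wider GENCODE span of the gene, with matches to the short element TGACG, read here on the other strand, in capitals.
Nr4a1: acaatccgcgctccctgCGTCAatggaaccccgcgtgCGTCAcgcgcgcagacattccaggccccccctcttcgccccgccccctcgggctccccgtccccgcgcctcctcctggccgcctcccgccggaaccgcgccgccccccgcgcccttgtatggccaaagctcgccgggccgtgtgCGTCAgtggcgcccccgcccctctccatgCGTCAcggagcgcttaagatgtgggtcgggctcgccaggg
The 4 matches begin 233, 213, 69 and 40 bases before the start. The short element on either strand occurs in 17.7% of all promoter windows and the full element TGACGTCA, not found here, in 1.55%. Among the promoter windows of genes called lower the short element was in 21.2%, and among those of all genes tested in 24.7%.

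The clock list had 1 of 19 members called, where 1.22% of all genes tested were. Nfil3, a repressor under clock control, fell from 45.4, 34.6 and 35.8 CPM to 17.2, 20.8, 24.3 and 21.4 CPM (log2 -0.88 ± 0.16, adjusted p = 0.011). The call was lost without control replicate 1. Per1, which responds to the clock and to glucocorticoids, was not called (log2 -0.80 ± 0.25, adjusted p = 0.14). Times of day of tissue collection are not in the labels.

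Of 19 denervation genes Myh8 rose and Cdkn1a fell, where 0.554% of all genes tested rose and 0.67% fell, and the median was 0.01. Cdkn1a, the cell cycle inhibitor p21, had 63.9, 52.4 and 56.6 CPM in controls and 27.0, 32.2, 33.6 and 28.7 CPM in SBMA mice, clearly apart (log2 -0.92 ± 0.13, adjusted p = 0.0021). Myog (log2 0.07), Ncam1 (0.12) and Runx1 (0.21), which rise in denervated muscle, had adjusted p of 0.92, 0.84 and 0.74. Of the 3 ubiquitin ligases in this list 2 lay below 0 and 1 above, and none was called. Trim63 had 575 ± 130 CPM in controls and 315 ± 73.5 CPM in SBMA mice (log2 -0.87 ± 0.23, adjusted p = 0.087), and Fbxo32 599 ± 102 and 412 ± 26.1 CPM (log2 -0.54 ± 0.14, adjusted p = 0.079). None of 29 atrophy and autophagy genes was called.

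Cytosolic heat shock proteins, which refold or clear polyglutamine proteins, had no called member of 14, and 6 of them lay above the controls in every SBMA library, a pattern of 7.90% of all genes. Hsph1, an Hsp110 chaperone, was at 89.0, 125 and 96.7 CPM in controls and 197, 169, 205 and 181 CPM in SBMA mice (log2 0.86 ± 0.20, adjusted p = 0.053). Its groups were far apart, and it was called in 5 of the 15 alternative fits.

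The steroid and polyamine list had 1 of 21 members called, where 1.22% of all genes tested were, and its median was -0.08. Smox, spermine oxidase, fell from 14.3 ± 0.539 CPM to between 9.71 and 10.3 CPM in SBMA mice (log2 -0.51 ± 0.11, adjusted p = 0.032), a call lost without any 1 of the 7 animals. The glucocorticoid-responsive kinase Sgk1 had 265, 162 and 168 CPM in controls and 85.5, 131, 97.7 and 124 CPM in SBMA mice, without overlap (log2 -0.86 ± 0.22, adjusted p = 0.076). Of the 8 steroid-response members 7 lay below 0, with a median of -0.70, and none was called. The 3 receptor members all lay above 0 (median 0.30). Of the 10 polyamine members 5 lay above 0 and 5 below (median -0.002).

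Called genes outside the lists included regulators of growth signalling, chosen after their values were seen. Deptor, an inhibitor of mTOR, rose from 107 ± 11.7 to 174 ± 6.64 CPM (log2 0.70 ± 0.13, adjusted p = 0.013; lost without control 1 or 3), and Grb14, an adaptor that restrains the insulin receptor, from 84.2 ± 12.7 to 138 ± 4.04 CPM (log2 0.71 ± 0.11, adjusted p = 0.0041). Slc7a5, a leucine transporter, rose by 0.98 (adjusted p = 0.036) and Eif4e, the cap-binding translation factor, by 0.38 (adjusted p = 0.0054). The imprinted neighbours Peg3 and Zim1 rose by 0.55 and 0.40 (adjusted p = 0.025 and 0.049). Slc7a5, Peg3 and Zim1 lost the call without control 1 or 3 or SBMA replicate 2, 3 or 4, Slc7a5 also without control 2 and Zim1 without SBMA replicate 1. Wnt4, a secreted ligand, fell from 24.6 ± 4.18 to 13.2 ± 1.65 CPM (log2 -0.90 ± 0.15, adjusted p = 0.0054).

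Large falls outside these groups were the intergenic RNA B230312C02Rik and the adhesion gene Mdga1. B230312C02Rik, on chromosome 2 (180370491 to 180385885), had 29.5, 33.6 and 27.7 CPM in controls and 4.85, 7.11, 2.80 and 5.19 CPM in SBMA mice. The groups were far apart (log2 -2.60 ± 0.33, adjusted p = 0.0011). Mdga1, a membrane-anchored immunoglobulin protein, fell from 26.2, 39.6 and 26.7 CPM to 11.3, 13.1, 7.92 and 10.3 CPM (log2 -1.53 ± 0.22, adjusted p = 0.0021). Both were called in all 15 alternative fits. The remaining large falls were the low-level genes E230001N04Rik (-2.74), Gm44117 (-1.88), Cytip (-1.52), Gm35161 (-1.27), Gm13091 (-1.03) and Gm49417 (-1.03). Of these 6, Gm35161 was called without each animal, and the others lost the call in 5 to 7 of those 7 fits, SBMA replicates 1, 2 and 3 among the animals left out in each case.

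Of 14 macrophage markers 1 was called, and it fell, as did 0.67% of all genes tested. All 14 macrophage markers lay below 0, with a median of -0.33 (-0.14 under total counts), and their summed level was 460.0 to 556.4 CPM in controls and 367.6 to 414.6 CPM in SBMA mice. Of them Cd74, the invariant chain of class II antigen presentation, was called: it had 157, 149 and 164 CPM in controls and 85.0, 95.3, 87.9 and 121 CPM in SBMA mice, without overlap (log2 -0.69 ± 0.15, adjusted p = 0.033). The class II loading factor H2-DMa (-0.66), the lysosomal thiol reductase Ifi30 (-0.81) and the NADPH oxidase subunit Ncf1 (-0.73), named after their values were seen, also fell (adjusted p = 0.044, 0.012 and 0.048). Cd74 lost the call without any 1 animal other than SBMA replicate 4, Ncf1 without any 1 animal, H2-DMa without control 1 or 3 or SBMA replicate 1, 2 or 3, and Ifi30 without control 1 or 3.

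Markers of other cell types differed between libraries rather than by test. Of 12 endothelial genes Esam, an adhesion molecule, fell (log2 -0.46 ± 0.10, adjusted p = 0.040), lost without any 1 animal other than control 1. Over all genes tested 0.67% fell. No adipocyte marker was called, but all 8 tested lay below 0 with a median of -1.31. Adipoq, adiponectin, was at 60.9, 13.7 and 38.4 CPM in controls and 6.26, 16.9, 22.1 and 9.24 CPM in SBMA mice, so that control replicates 1 and 3 were high and control 2 lay among the SBMA libraries. The summed adipocyte markers were 415.0 to 1064 CPM in controls and 281.0 to 567.3 CPM in SBMA mice. Blood markers were above 0 in 6 of 6 (median 0.62, none called; 0.11 without SBMA replicate 2), and their sum was highest in SBMA replicate 2 (603.6 CPM against 154.2 to 282.2 in the others). The part of fat, blood and immune cells in the genes called was not tested. No satellite cell, Schwann cell, fibroadipogenic, tendon, smooth muscle or mesothelial marker was called.

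At 26 weeks, in 8 other animals, 5007 of 15526 genes (32.2%) differed in the same region. Of the 190 genes called at 15 weeks, 181 (95.3%) were called there in the same direction, and these make up 3.61% of the 26-week list; none was called in the opposite direction. Both ages share the same fit and estimate of spread, so the calls at 26 weeks are not independent of those at 15 weeks. In 156 of the 190 the fold change was larger at 26 weeks. The difference between ages was called for 268 genes (1.73% of those tested), and 43 of the 190 were among them; the share of 1.73% became 0.867% without control replicate 2 and 0.756, 0.945 and 1.01% without SBMA replicates 1, 2 and 4 of 15 weeks.

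Among genes that moved further by 26 weeks, Hectd2os went from a log2 fold change of 1.63 to 3.56 (adjusted p of the difference 0.00051), Peg3 from 0.55 to 2.36 (4.9e-05), Tceal5 from 1.24 to 2.83 (0.0076) and Myh8 from 0.95 to 2.38 (0.011). The lncRNA 2310065F04Rik went from -2.29 to -5.13 (adjusted p of the difference 0.0057), Pvalb from -1.46 to -2.95 (0.013) and Mb from -0.72 to -2.32 (7.8e-05). Nmrk2, a muscle kinase of NAD synthesis, was not called at 15 weeks (log2 -0.88 ± 0.22, adjusted p = 0.064) and stood at -4.02 at 26 weeks (adjusted p of the difference 0.00015). Chrnb1 likewise went from an uncalled 0.48 to 1.86 (0.0031). Chrna1 stood at 2.30 at 26 weeks, with a difference between ages that did not pass (adjusted p = 0.10).

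A few rises were seen at 15 weeks alone. Slc15a5 had a log2 fold change of 1.22 at 15 weeks and -0.09 at 26 weeks (adjusted p of the difference 0.047). Actr3b, a subunit of the actin-nucleating complex, had 22.1, 22.6 and 23.2 CPM in controls and 31.6, 33.4, 37.0 and 35.0 CPM in SBMA mice at 15 weeks, without overlap (log2 0.60 ± 0.08, adjusted p = 0.0011), and a log2 fold change of -0.02 at 26 weeks (adjusted p of the difference 0.0070). Eif4e went from 0.38 to 0.01 (adjusted p of the difference 0.036). These 3 genes were chosen after their values were seen, as called at 15 weeks with a fold change near 0 at 26 weeks.

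**Figure D5:**
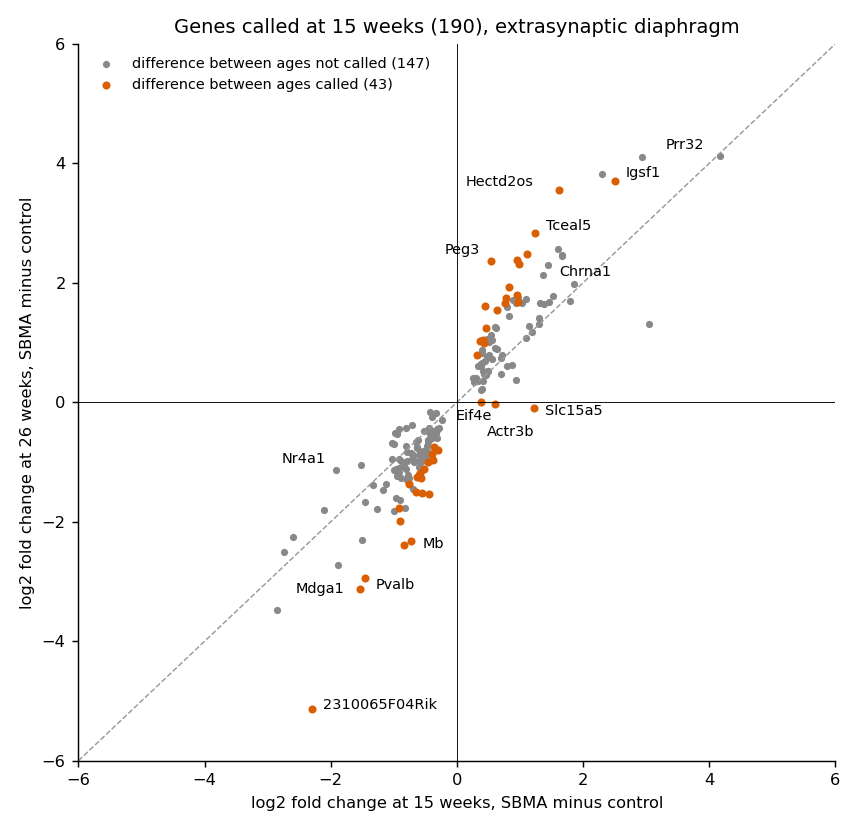
Log2 fold change of SBMA over control at 26 weeks (vertical axis) against that at 15 weeks (horizontal axis) for the 190 genes called at 15 weeks, one point per gene; the dashed line marks equal values. Orange points are the 43 genes whose difference between ages was called; most lie farther from 0 at 26 weeks, and Slc15a5, Actr3b and Eif4e lie near 0 there.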

How the data were processed

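Bulk RNA-seq was made from diaphragm of 15 male mice with a stranded mRNA kit, per the labels' protocols, and the 7 extrasynaptic libraries at 15 weeks are described. The authors deposited raw counts per gene, made with featureCounts on mm10 per the submitters' processing notes, with aligner, annotation release and strand setting not given in the sources used here. Libraries held 16280873 to 34694446 counts over 33076 genes. Identifiers were joined to GENCODE vM21 (GRCm38); 33064 matched, 746 of them without the version, and the 12 others carried 0.00171% of counts.

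The 15 extrasynaptic libraries were fitted together with a mean per genotype and age (edgeR 4.0.16 in R 4.3.3, filterByExpr with minimum count 10 and total 15, TMM, quasi-likelihood test, 11 residual degrees of freedom). Calls were made at an adjusted p (Benjamini-Hochberg) under 0.05. A fit of all 30 libraries with a term per animal gave the difference between regions. CPM uses TMM-scaled library sizes, and values are mean ± SD over animals. P-values rest on a spread between animals estimated over all libraries of a fit. For the comparison at 15 weeks, 8 of the 15 libraries in the fit came from animals at 26 weeks. Counts lack molecular identifiers. No pair of the 7 libraries agreed within sampling noise (smallest chi-square per gene 11.3).

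The comparison, gene lists and naming rule were chosen with earlier results of these data known. The rule takes the 15 largest called rises and falls above 2 CPM, up to 4 members of each of 39 lists by p, and 31 fixed genes; the text gives a selection, and some genes are not reported here. The fits were tested on simulated counts. Alternatives were DESeq2 1.42.0, other scalings and filters, blocks, and leaving out each animal.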

Additional observations from a re-analysis of the deposited data

Results flagged for a closer look

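For these genes the difference between SBMA and control mice at 26 weeks, minus that at 15 weeks, passed the test of the difference between ages; values are on the log2 scale. It was positive for Hectd2os (1.93), Peg3 (1.82), Bex1 (1.71), Tceal5 (1.59), Myh8 (1.43), Ncam1 (1.38), Chrnb1 (1.37), Tceal7 (1.37), Slc7a5 (1.33), Igsf1 (1.21), Stbd1 (0.70) and Tceal9 (0.55), so that each stood higher in SBMA mice by a larger amount at 26 weeks. Among genes lower in SBMA mice it was negative for Nmrk2 (-3.13), 2310065F04Rik (-2.83), Mb (-1.61), Mdga1 (-1.59), Pvalb (-1.49), Tmod4 (-1.09), Myh2 (-1.08), Lpl (-0.96), 9430073C21Rik (-0.87), Coq8a (-0.63), Myoz1 (-0.62), Mylpf (-0.54), Myot (-0.47) and Hrc (-0.38). Slc15a5 (-1.31), Actr3b (-0.62) and Eif4e (-0.37) were negative because the rise at 15 weeks had no counterpart at 26 weeks.

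In 7 named genes 1 SBMA library lay apart from the other 3; chance alone sets a library apart in about 1 in 20 groups. SBMA replicate 3 was low for Tpm2 (5115 CPM, the others 5691 to 5808) and Ppp1r3c (198 CPM, the others 260 to 267). SBMA replicate 1 was low for Atp2a2 (1282 CPM, the others 1535 to 1572) and high for Esam (33.1 CPM, the others 30.8 to 31.2). SBMA replicate 2 was high for Hrc (1195 CPM, the others 1093 to 1103) and Zim1 (17.2 CPM, the others 15.4 to 15.6), and SBMA replicate 4 was low for Eif4e (58.5 CPM, the others 61.7 to 62.0).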

How the results depend on the processing

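Against 190 genes called, DESeq2 called 483, no filter on low counts 291 and scaling by total counts alone 2356; leaving out 1 animal gave 81 to 189. Factors from relative log expression, removal of ribosomal RNA features, a block for runs of animal numbers and the 7 libraries alone stayed within 1.5 times. For the block and the 7 libraries alone this holds for the number of genes and not for their identity. In each of these fits many of the 190 were not called, and other genes were. The difference between ages gave 268 genes (1.73% of those tested), with 380 higher and 236 lower of 30683 by DESeq2 (2.01%) and 0.756 to 1.83% without 1 animal. The difference between regions gave 0, with 5 by DESeq2, 154 with no filter, 2 from the 14 libraries at 15 weeks (Chrna1 and Gm37194) and 0 to 6 without 1 animal. The cause of these shifts was not tested. Same-numbered animals share only a number: their deviations correlated at -0.23, 0.02 and -0.06, no SBMA library was closest to its own number, and the replicate block, with 5 residual degrees of freedom, gave 47 genes and, for the ages, 0.187%; no paired fit of the regions beyond the animal term was run. Of 81 named genes called 19 were called in every setting, and none changed sign. In the fit of the 7 libraries alone 14 of the 81 lost the call. The named genes were chosen in part by size and p, so this share does not stand for all 190.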

Other observations

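Other groups of genes held no called member. All 31 proteasome genes were uncalled, with a median log2 fold change of 0.00, and 4 of them lay above the controls in every SBMA library, a pattern of 7.90% of all genes. Of 28 genes of the endoplasmic reticulum stress response 21 lay below 0 (median -0.15, 0.04 under scaling by total counts, -0.09 without control replicate 1). The 22 extracellular matrix genes had a median of 0.05, the 12 genes of NAD synthesis -0.08 (-0.02 without control replicate 1, -0.15 without control replicate 2) and the 11 trophic factors tested -0.16 (-0.06 without control replicate 3). The mitochondrially encoded share of total counts was 9.24 to 11.1% in controls and 11.4 to 12.5% in SBMA libraries, with no overlap. This share does not use the normalization factors, which were 0.887 to 0.932 in controls and 1.01 to 1.05 in SBMA libraries. It cannot be read as a difference in CPM. Lymphocyte markers summed to 23.1 CPM in control replicate 1 and to 3.79 to 6.18 CPM in the other 6 libraries.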
